A study of Mus musculus with 9 samples.

Results

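The genes described here are those of the cyclic AMP and protein kinase A pathway, chosen by symbol: adenylyl cyclases, phosphodiesterases, the subunits, inhibitors and anchors of protein kinase A, the CREB family with its coactivators, and the exchange proteins Rapgef3 and Rapgef4. The rule matched 104 probes of 70 genes, of 16637 genes named on the arrays. Through an older symbol 12 probes were matched, and 24 genes had more than 1 probe. The rule works on the first letters of a symbol, so it also took in the neuropeptide Adcyap1 with its receptor Adcyap1r1, the centrosomal protein Pde4dip, the mitochondrial RNA enzyme Pde12, and distant relatives of CREB such as Atf6b, Crebrf, Crebzf and Crebl2.

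Cyclic AMP is made from ATP by adenylyl cyclases and broken down by phosphodiesterases. It binds the regulatory subunits of protein kinase A and so frees the catalytic subunits, which phosphorylate ion channels, receptors and the transcription factor CREB. Anchoring proteins hold the kinase at particular sites in the cell, small inhibitor proteins block the free catalytic subunits, and the exchange proteins carry a signal of cyclic AMP that does not pass through the kinase. In the hippocampus the pathway is known for its part in long-lasting synaptic potentiation and in memory.

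The RNA was that of 8 female mice, 2 per group, from a single hippocampus each. The groups were 3xTG mice at 12 months, 3xTG mice at 3 months, wild-type (WT) mice at 12 months and WT mice at 3 months. The labels give the 3xTG strain a transgene insertion of APPSwe and tauP201L, and the WT strain as 129SV with C57BL6. The APP and tau transgenes of this line are driven by a Thy1 promoter, so they are expressed mainly in neurons. Every comparison was hybridised directly on 3 two-colour arrays: 3xTG over WT at 12 months, 3xTG over WT at 3 months, and WT at 12 over 3 months. No pair of arrays held the same 2 mice, but all 9 arrays shared mice with others. The 2 genotype comparisons each used the WT mice of their own age. The 3-month WT mice are the lower part of the ratio both in WT ageing and in the 3-month genotype comparison, while the 12-month WT mice form the upper part of the ratio in WT ageing and the lower part in the 12-month genotype comparison.

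All values are log2 ratios, test over reference, relative to the median of their own array, so that 0 is the middle of an array and 1 is a doubling. The direction is likely rather than certain, since it rests on the labels alone. Between 13683 and 16191 of 29922 probes had a value per array, and no deposited value lay within 0.5 of 0, so small deposited ratios are missing. That gap is on the scale before centring. Array medians of the deposited ratios ran from -1.71 to 2.335, so after centring the gap lies at a different place on each array and values near 0 can be present. Among the genes behind the labels, App had a fitted log2 ratio of 2.26 ± 0.76 (SE) at 12 months in 3xTG over WT. At 3 months it was 3.33 ± 0.76. Mapt, the tau gene, read 2.69, 2.99 and 2.38 on the arrays of 12 months and had a value on 1 array at 3 months, at -0.16. Whether these probes read the human transgenes was not tested. Abundant transcripts of ribosome, respiratory chain, glycolysis and proteasome had a median of 2.08 on the 12-month arrays, near the fitted App ratio there. At 3 months their median was 0.52. Of the markers of the labelled tissue, 7 of 7 for pyramidal cells and 6 of 6 for dentate granule cells were listed on at least 1 array, though a ratio gives no level. RNA of whole hippocampus cannot tell fewer cells of a type from less RNA per cell, which holds for every result below.

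Values were sparse. Of the 70 genes, 5 were listed on all 9 arrays, namely Pkia, Creb1, Adcy6, Adcyap1r1 and Pde7a, and none was missing from every array. A gene entered the fit if at least 2 of 3 arrays of each comparison listed it, which left 20 of the 70 pathway genes among 3944 genes fitted. None of the 20 passed limma's test at an adjusted p of 0.05 in any comparison, and of all genes 0% passed in each. The values below therefore describe these mice and arrays. At an unadjusted p under 0.05 in limma, 3xTG over WT at 12 months had 2 pathway genes above 0 (10%, against 15.4% of all genes) and 0 below (against 2.74%). At 3 months there were 2 above (10%, against 10.5%) and 2 below (10%, against 6.29%). In WT ageing there were 2 above (10%, against 3.32%) and 1 below (5%, against 10.8%). With 20 genes these shares move by 5 points for each gene.

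The pathway genes lay on both sides of the array median. In 3xTG over WT at 12 months, 10 of the 20 fitted genes lay above 0, against 60% of all genes, with a median of -0.075 for the pathway and 0.48 for all genes. At 3 months 9 of 20 lay above 0, against 52.9%, with medians of -0.60 and 0.12. In WT ageing 10 of 20 lay above 0, against 46.3%, with medians of 0.15 and -0.15. Without centring 6, 10 and 18 of the 20 lay above 0 in these comparisons, where the medians of all genes were -0.69, 0.39 and 1.74. Leaving out a single array could undo these small gaps: the median of the pathway minus that of all genes was -0.73 at 3 months and -0.086 without the third array of that comparison. In WT ageing the same difference was 0.30, but -0.28 without the first array and -0.10 without the third.

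**Figure D1:**
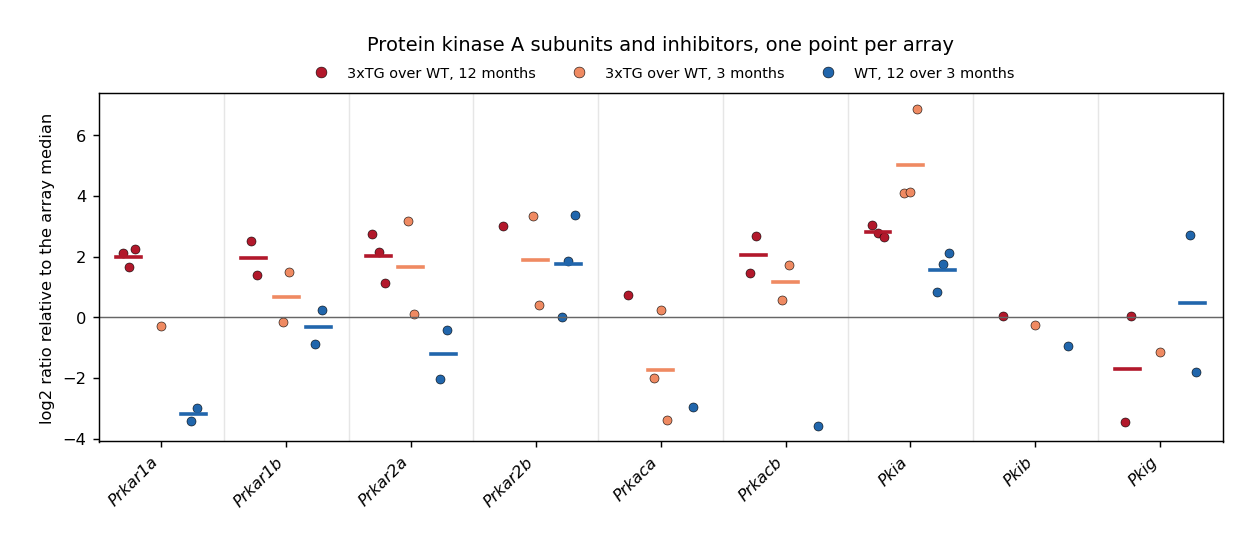
Log2 ratios of protein kinase A regulatory and catalytic subunits and of its inhibitors, relative to the array median. Each point is 1 array, colours mark the 3 comparisons, and a bar marks the mean where at least 2 arrays list the gene. Pkia lies above 0 on all 9 arrays, which share mice. The 12 subunit values of 3xTG over WT at 12 months all lie between 0.73 and 3.00.

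Pkia, the inhibitor that blocks free catalytic subunits as a pseudosubstrate, was above 0 on every array. In 3xTG over WT at 12 months it read 3.03, 2.79 and 2.66. At 3 months it read 4.10, 4.12 and 6.86, and in WT at 12 over 3 months 0.83, 1.77 and 2.13. No other pathway gene was above 0 on all 9 arrays, where 21 of the 516 genes listed on all of them were. For Pkia, WT ageing and the 3-month genotype comparison share their WT reference mice, so that shared sign is not a separate observation in each. At 12 months the lowest Pkia ratio of the genotype comparison lay above the highest of WT ageing, and at 3 months the lowest lay above the highest at 12 months. The first order reversed without centring: 2.163, 1.915 and 0.947 at 12 months all lay below the 2.243, 4.102 and 4.084 of WT ageing. The 3-month ratios, 4.944, 3.281 and 7.823, still lay above those of 12 months. The share of all genes with values so separated is not given, here or for the genes below.

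The fitted Pkia ratio was 2.90 ± 0.81 in 3xTG over WT at 12 months (log2 and SE, limma adjusted p = 0.148), 5.16 ± 0.81 at 3 months (adjusted p = 0.0810) and 1.59 ± 0.81 in WT ageing (adjusted p = 0.447). By p it ranked 3 of all genes at 3 months, where 0.0810 was the smallest adjusted p of any gene, shared by 10 genes. At 12 months its size depended on the centring: it was 1.14 ± 0.84 (unadjusted p = 0.207) relative to abundant transcripts of ribosome, respiratory chain, glycolysis and proteasome, and 1.73 ± 0.99 (unadjusted p = 0.111) without centring, against an unadjusted p of 0.00474 relative to the array median. At 3 months these centrings gave 4.42 and 5.51, and in WT ageing 2.28 and 3.45. The difference of the genotype effect, 12 minus 3 months, was -2.26 ± 1.13 (adjusted p = 0.546), so the larger value at 3 months is not shown to differ from that at 12 months. Pkia at 3 months passed in 2 alternative fits: with arrays taken as independent (adjusted p = 0.0406), which disregards the shared mice, and among the genes listed on all arrays (adjusted p = 0.0178), which are fewer. Over all 19 alternatives its adjusted p ran from 0.0178 to 0.533, the highest without the third array of that comparison, where the ratio was 3.78. Only 1 probe of the arrays carries the Pkia symbol, so no second probe bears on these values.

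The other inhibitors showed no such pattern. Pkib was listed once per comparison, at 0.03 in 3xTG over WT at 12 months, -0.27 at 3 months and -0.95 in WT ageing. Pkig read -3.46 and 0.05 at 12 months, -1.14 on 1 array at 3 months, with 2.73 and -1.79 in WT ageing. Neither gene entered the fit.

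Among all genes listed on the 9 arrays, the 3 whose values followed Pkia most closely were Capza2, an actin capping subunit (Pearson r = 0.970 over 9 arrays), Golga7 (0.917), which acts in protein palmitoylation, and Sparcl1 (0.903), a secreted matrix protein of astrocytes. These were picked as the highest of 515 genes, and the arrays share mice, and 6 of the 9 have the 3-month WT mice as their reference. The other pathway genes listed on all arrays had r of 0.062 (Creb1), -0.13 (Adcy6), -0.22 (Adcyap1r1) and -0.65 (Pde7a).

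The subunits of the kinase itself lay on 1 side in the genotype comparison at 12 months. Prkar1a, the widely expressed type I regulatory subunit, read 2.11, 1.64 and 2.25, and Prkar2a, a type II regulatory subunit, read 2.74, 2.14 and 1.13. Prkar1b, the type I subunit of neurons, read 2.52 and 1.39, and Prkar2b, the type II subunit abundant in brain, 3.00 on a single array. The catalytic subunits gave 0.73 on 1 array for Prkaca, and 1.45 and 2.69 for Prkacb. All 12 subunit values lay above the array median, with a median of 2.13, where 54.2% of all gene values did.

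At 3 months 8 of 12 subunit values lay above 0, against 51% of all gene values. The subunit median was 0.32, with a range of -3.39 to 3.35. Prkar2b read 3.35 and 0.41, Prkar2a 3.19 and 0.10, and Prkacb 0.57 and 1.73. Prkaca read -2.01, 0.23 and -3.39. In WT ageing 4 of 11 subunit values lay above 0, against 47.8% of all gene values, with a subunit median of -0.87. Prkar1a was at -3.40 and -2.98 there, and Prkaca and Prkacb at -2.97 and -3.57 on the second array, the one that gave Prkar1a its -3.40. Prkar2b went the other way, at 0.01, 1.85 and 3.37, where the 0.01 is the mean of 2 probes at -0.448 and 0.47. The WT mice of 12 months stand above the line in WT ageing and below it in the genotype comparison at that age, so opposite signs in the 2 comparisons are not separate observations.

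Of these subunits, Prkar2a and Prkar1b entered the fit. Prkar2a was at 1.66 ± 0.80 in 3xTG over WT at 12 months (log2 and SE, limma adjusted p = 0.306), 1.65 ± 0.94 at 3 months (adjusted p = 0.415) and -1.22 ± 0.90 in WT ageing (adjusted p = 0.667). Prkar1b was at 2.78 ± 1.39 (adjusted p = 0.332), 0.68 ± 0.96 (adjusted p = 0.763) and 0.51 ± 1.46 (adjusted p = 0.949) in the same order. The genotype effect at 12 minus 3 months was 0.018 ± 1.23 for Prkar2a and 2.09 ± 1.70 for Prkar1b.

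The 12-month pattern depended on what the arrays were centred on. The abundant transcripts had a median of 2.08 on these arrays, close to the 2.13 of the kinase subunits. Relative to them, 7 of the 12 subunit values lay above 0, with a median of 0.055, and without centring 10 of 12 did, with a median of 0.87. Markers of pyramidal cells lay above 0 beside it, 3 of 3 fitted, with array medians of 2.28 to 2.96 over 11 values of 7 genes, and the neuron list had 2 of 3 fitted above 0 and array medians of 0.38 to 2.13. Interneuron markers, of which 0 were fitted, had array medians of 0.925 to 1.76 over 7 values. Oligodendrocytes had 1 of 2 fitted markers above 0 and array medians of 0.285 to 1.218. The striatum list had 1 of 1 fitted above 0, with array medians of -0.369 to 2.508. Dentate granule cells and astrocytes each had 1 of 2 fitted markers above 0, microglia 0 of 2, and endothelium and choroid plexus 0 of 1 each. The array medians of these last lists lay on both sides of 0. The part of cell makeup in the subunit values was not tested.

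The promoters of 3 genes of this set are printed for the cyclic AMP response element, the motif that CREB binds: those of Prkar1a and Creb5 hold it in full, and that of Prkar2a holds only its core. RefSeq windows of 300 bases (250 before to 50 after a gene's start, build GRCm38.p6) were found for 59 of the 70 genes. They were searched on both strands for the full element, TGACGTCA, which reads the same on both strands, and for its 5-letter core, TGACG or CGTCA, which each full element contains. The full element was in windows of 2 of the 59 genes, Prkar1a and Creb5 (3.39%, against 2.03% of 27025 genes in all), and by window in 2.65% of 113 windows of pathway genes, against 1.79% of 32851 windows of all genes. The core was in windows of 25 pathway genes (42.4%, against 23% of all genes), and by window in 26.5%, against 20.8%. These shares were not tested. In the lines below, on the plus strand, capitals mark the element or its core. For Prkar1a (chr11:109650699-109650998) the full element begins 49 bases before the start, and an upstream core is marked too. For Prkar2a (chr9:108691893-108692192) a core begins 4 bases before the start, and for Creb5 (chr6:53287053-53287352) the full element begins 45 bases before it.
Prkar1a: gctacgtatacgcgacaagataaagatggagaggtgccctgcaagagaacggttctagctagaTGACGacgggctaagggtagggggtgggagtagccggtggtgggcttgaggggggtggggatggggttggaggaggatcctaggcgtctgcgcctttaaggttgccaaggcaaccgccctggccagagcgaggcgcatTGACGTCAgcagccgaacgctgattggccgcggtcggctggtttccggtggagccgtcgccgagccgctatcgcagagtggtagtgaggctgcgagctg
Prkar2a: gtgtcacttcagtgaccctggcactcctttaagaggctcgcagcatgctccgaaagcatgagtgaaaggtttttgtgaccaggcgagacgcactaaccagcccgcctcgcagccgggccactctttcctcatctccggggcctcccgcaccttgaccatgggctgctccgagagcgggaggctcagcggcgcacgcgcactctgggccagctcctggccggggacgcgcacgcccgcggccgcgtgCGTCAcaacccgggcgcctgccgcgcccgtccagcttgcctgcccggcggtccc
Creb5: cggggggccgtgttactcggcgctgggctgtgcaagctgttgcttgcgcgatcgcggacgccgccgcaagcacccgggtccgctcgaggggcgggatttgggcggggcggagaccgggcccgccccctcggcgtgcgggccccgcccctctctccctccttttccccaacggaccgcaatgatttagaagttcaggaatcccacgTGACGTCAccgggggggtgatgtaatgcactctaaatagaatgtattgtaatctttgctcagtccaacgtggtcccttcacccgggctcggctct
A match is a run of letters, not a site at which binding was measured, and Prkar1a, Prkar2a and Creb5 did not share a direction: at 12 months in 3xTG over WT, Creb5 read -1.40 and -0.99 where both subunit genes were above 0.

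**Figure D2:**
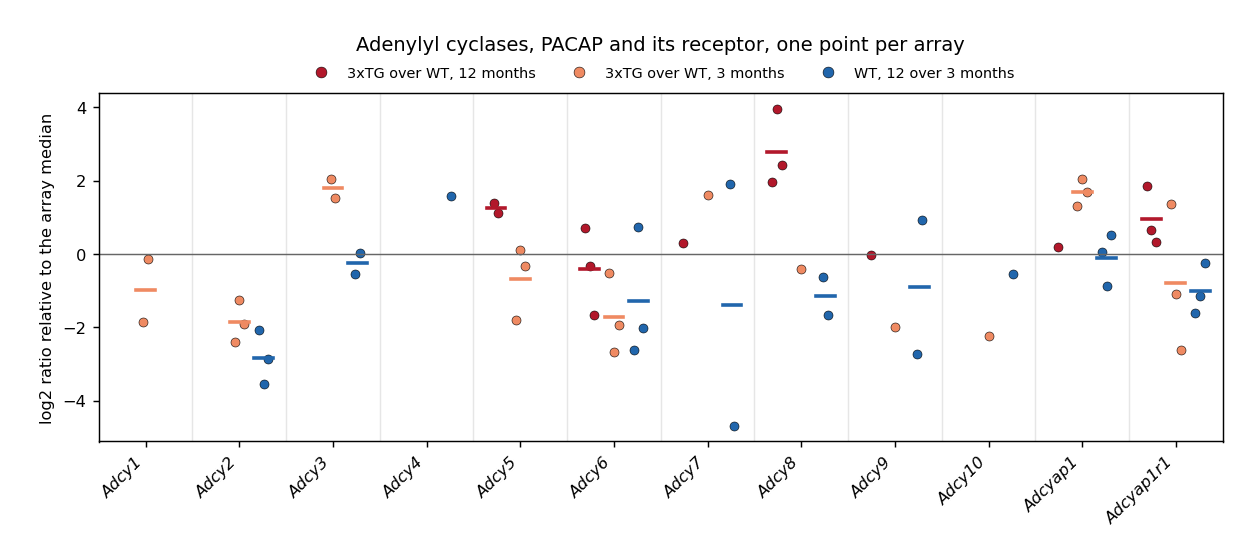
Log2 ratios of adenylyl cyclases, of the neuropeptide PACAP (Adcyap1) and of its receptor (Adcyap1r1), relative to the array median. Each point is 1 array, colours mark the comparison and bars the mean of 2 or 3 arrays. Adcy8 lies between 1.97 and 3.95 in 3xTG over WT at 12 months, and Adcy2 lies below 0 on all 6 arrays that list it.

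The cyclases, which make cyclic AMP, were thinly listed: only Adcy6 of 10 entered the fit. Adcy8, a cyclase stimulated by calcium and calmodulin and known in hippocampal plasticity, read 1.97, 3.95 and 2.44 in 3xTG over WT at 12 months. It read -0.42 on 1 array at 3 months and -0.62 and -1.66 in WT ageing. Relative to the array median the 12-month values are the only ones above 0 and do not overlap with the others. Without centring the 12-month values were 1.10, 3.08 and 0.73, and those of WT ageing 0.79 and 0.68, so these sets overlap above 0. In a fit with no filter on missing values Adcy8 was at 2.84 ± 0.92 at 12 months (log2 and SE, limma adjusted p = 0.292), and its genotype effect at 12 minus 3 months was 3.17 ± 1.79 (adjusted p = 0.707). Adcy1, which calcium also stimulates, was listed only at 3 months, at -1.84 and -0.12.

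Adcy2, a cyclase stimulated by G protein beta-gamma subunits, was below 0 wherever it was listed. It read -2.40, -1.24 and -1.91 in 3xTG over WT at 3 months and -2.07, -3.55 and -2.85 in WT at 12 over 3 months. All 6 arrays have the 3-month WT mice below the line, so the shared sign is not a separate observation in each comparison. No array of the genotype comparison at 12 months listed it. The unfiltered fit gave -1.81 ± 0.80 at 3 months (adjusted p = 0.428) and -2.74 ± 0.80 in WT ageing (limma adjusted p = 0.311).

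Adcy5 and Adcy6 are the closely related cyclases inhibited by calcium. Adcy5 read 1.40 and 1.13 for genotype at 12 months and -1.79, 0.11 and -0.32 at 3 months. Adcy6 read 0.71, -0.32 and -1.65 at 12 months, -0.52, -2.68 and -1.93 at 3 months, with -2.60, 0.74 and -2.01 in WT ageing. Its fitted ratio was -0.61 ± 0.89 at 12 months, -1.86 ± 0.89 at 3 months (log2 and SE, limma adjusted p = 0.327) and -1.50 ± 0.89 in WT ageing. Adcy3, the cyclase of olfactory neurons and neuronal cilia, read 2.06 and 1.53 at 3 months. The values of Adcy4, Adcy7, Adcy9 and Adcy10 were at most 2 per comparison, from -4.68 to 1.91.

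Over all cyclases, 7 of 10 values lay above 0 in 3xTG over WT at 12 months (median 0.92), 4 of 17 at 3 months (median -1.24) and 5 of 16 in WT ageing (median -1.14). Of all gene values, 54.2%, 51% and 47.8% lay above 0 in that order. Relative to the abundant transcripts the cyclase counts were 2 of 10, 3 of 17 and 5 of 16, and without centring 4, 6 and 9.

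PACAP, encoded by Adcyap1, acts through a receptor that stimulates adenylyl cyclase. Adcyap1 read 0.19 on 1 array in 3xTG over WT at 12 months, 1.32, 2.05 and 1.70 at 3 months, with 0.06, -0.87 and 0.51 in WT ageing. Relative to the array median its values at 3 months lay above the others with no overlap. Without centring they were 2.165, 1.216 and 2.66, against 1.475, 1.469 and 2.468 in WT ageing, so these sets overlap. The receptor Adcyap1r1 read 1.87, 0.66 and 0.34 at 12 months, 1.36, -1.09 and -2.62 at 3 months, with -1.61, -1.13 and -0.25 in WT ageing. Its fitted ratios were 0.66 ± 0.82, -1.03 ± 0.82 and -1.27 ± 0.82 (log2 and SE) in that order. Its 4 probes lay on the same side of 0 in 14 of 29 pairs, so the mean of its probes hides values from -5.39 to 5.48.

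**Figure D3:**
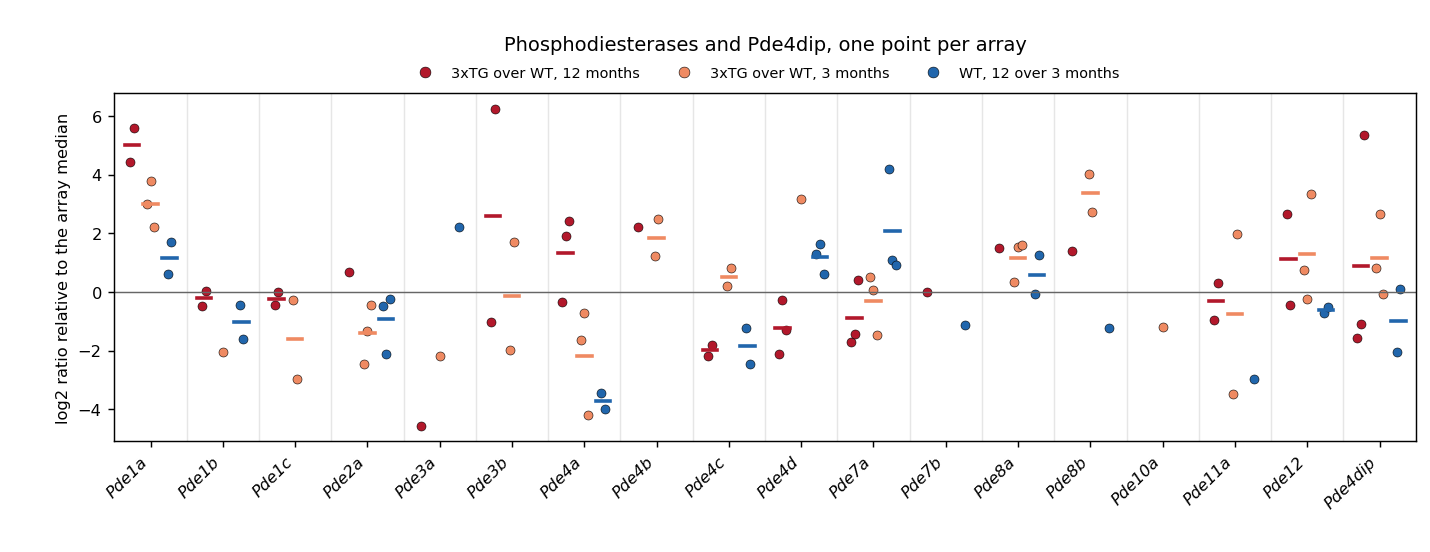
Log2 ratios of phosphodiesterases and of Pde4dip, relative to the array median. Each point is 1 array, colours mark the comparison and bars the mean of 2 or 3 arrays. Pde1a lies above 0 on all 7 arrays that list it, and Pde4a lies below 0 on both arrays of WT ageing.

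Of the phosphodiesterases, 5 of 17 entered the fit, where both counts include the RNA enzyme Pde12. Among these 5, Pde1a had the highest ratio in both genotype comparisons. With no filter on missing values Pde4d, listed on 1 array at 3 months, was higher there, at 3.25 against 2.91. Pde1a encodes an enzyme activated by calcium and calmodulin that hydrolyses cyclic AMP and cyclic GMP. Pde1a read 4.43 and 5.60 in 3xTG over WT at 12 months, 3.01, 3.78 and 2.23 at 3 months, and 0.63 and 1.72 in WT at 12 over 3 months. Relative to the array median the 3 sets of values do not overlap. Without centring they were 3.561 and 3.89 at 12 months and 3.853, 2.944 and 3.192 at 3 months. Those of WT ageing were then 2.043 and 4.053, so the sets overlap. The fit gave 5.05 ± 0.98 at 12 months (log2 and SE, limma adjusted p = 0.140), 2.91 ± 0.83 at 3 months (adjusted p = 0.172) and 1.17 ± 0.94 in WT ageing (adjusted p = 0.702). The genotype effect at 12 minus 3 months was 2.13 ± 1.28 (adjusted p = 0.618), and 0.52 ± 1.28 without centring.

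Pde1a has 2 probes, and both gave values above 0 on each of the 4 arrays that listed both. On those of 3 months the first read 2.09, 3.14 and 1.98 and the second 3.93, 4.41 and 2.47. On the 12-month array that listed both they read 4.89 and 6.31. Under 17 alternatives the adjusted p of Pde1a ran from 0.0824 to 0.407 at 12 months and from 0.112 to 0.582 at 3 months, and its ratio from 3.43 to 6.18 and from 2.18 to 3.50, so it stayed above 0 in each. The related Pde1b and Pde1c did not share this. Pde1b read -0.48 and 0.05 at 12 months, -2.06 at 3 months, with -0.46 and -1.60 in WT ageing, and Pde1c read -0.43 and -0.01 at 12 months and -0.26 and -2.96 at 3 months.

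The Pde4 family hydrolyses cyclic AMP only. Pde4a read -0.33, 1.90 and 2.43 in 3xTG over WT at 12 months, -1.63, -0.70 and -4.20 at 3 months, with -3.43 and -3.97 in WT ageing. The fit gave 1.30 ± 1.00 at 12 months (log2 and SE, limma adjusted p = 0.527), -2.33 ± 1.00 at 3 months (adjusted p = 0.288) and -3.87 ± 1.40 in WT ageing (adjusted p = 0.253). Its genotype effect at 12 minus 3 months, 3.63 ± 1.38 (adjusted p = 0.510), was the only 1 of the 20 fitted genes at an unadjusted p under 0.05, with 1 above 0 (against 6.87% of all genes) and 0 below (against 2.54%). Of all genes 0% passed that difference after adjustment, and without any 1 of 3 arrays (the third at 3 months, the second or the third at 12 months) no pathway gene was at an unadjusted p under 0.05. Relative to the abundant transcripts the difference for Pde4a was 2.61 (unadjusted p = 0.112) and its ratio at 12 months -0.42, and without centring they were 2.11 (unadjusted p = 0.123) and 0.16.

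Pde4d had the opposite order to Pde4a in the genotype comparisons only, lower at 12 than at 3 months. It read -2.10, -0.27 and -1.29 at 12 months in 3xTG over WT, 3.18 on 1 array at 3 months, with 1.29, 1.62 and 0.63 in WT ageing. Its probes disagreed at 12 months, where on the second array they read 2.65 and -3.18. Pde4c read -2.19 and -1.79 at 12 months, 0.20 and 0.83 at 3 months, with -1.24 and -2.46 in WT ageing. Pde4b, which was listed on 3 arrays, read 2.21 at 12 months and 1.22 and 2.50 at 3 months.

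Pde7a, another enzyme that hydrolyses cyclic AMP only, read 4.20, 1.10 and 0.92 in WT at 12 over 3 months. It read -1.69, -1.44 and 0.43 for genotype at 12 months and 0.52, 0.06 and -1.48 at 3 months. The WT ageing values all lay above the others. Its fitted ratio in WT ageing was 2.33 ± 0.88 (log2 and SE, limma adjusted p = 0.264), against -0.72 ± 0.88 and -0.18 ± 0.88 for genotype at 12 and 3 months.

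Pde2a, which cyclic GMP stimulates, read 0.67 at 12 months, -2.46, -1.32 and -0.44 at 3 months, with -0.46, -2.11 and -0.24 in WT ageing, but its 2 probes lay on the same side in 1 of 4 pairs. Pde8a, an enzyme of high affinity for cyclic AMP, read 1.49 at 12 months, 0.35, 1.54 and 1.60 at 3 months, with -0.07 and 1.26 in WT ageing. Pde8b read 1.39 at 12 months, 4.04 and 2.75 at 3 months and -1.22 in WT ageing. Pde3b, which cyclic GMP inhibits, ranged from -1.99 to 6.23 over 4 arrays, with -1.04 and 6.23 both at 12 months. Pde3a, Pde7b, Pde10a and Pde11a were listed on 1 to 5 arrays with values of -4.56 to 2.21.

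Over the 17 phosphodiesterases, 14 of 29 values lay above 0 at 12 months (median -0.014), 19 of 34 at 3 months (median 0.28) and 10 of 25 in WT ageing (median -0.46). Of all gene values, 54.2%, 51% and 47.8% lay above 0 in that order. Relative to the abundant transcripts 6, 16 and 13 of the phosphodiesterase values did, and without centring 9, 18 and 21. These phosphodiesterase counts and medians include Pde12. Pde4dip, an anchor of Pde4 enzymes at the centrosome and Golgi, read -1.57, -1.07 and 5.36 at 12 months, and was fitted at 1.33 ± 1.32 there. Each of these arrays listed a different 1 of its 3 probes, so a difference between arrays cannot be told from one between probes. Pde12, which acts on RNA and not on cyclic AMP, was fitted at 1.11 ± 1.27 and 1.40 ± 1.08 in the genotype comparisons at 12 and 3 months.

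Of the 12 anchoring proteins, 3 entered the fit. Akap13, a large anchor of the kinase, read -0.24 and -3.25 in 3xTG over WT at 12 months, 1.41 and -3.72 at 3 months, with 2.19, 2.78 and 1.10 in WT ageing. It was fitted at -2.79 ± 1.54, -1.16 ± 1.27 and 1.72 ± 1.13 (log2 and SE, limma adjusted p = 0.373, 0.673 and 0.604). Akap1, which holds the kinase at the outer mitochondrial membrane, was fitted at -0.19 ± 0.91, 0.006 ± 1.02 and -0.57 ± 1.29 in the same order. Akap9, an anchor at the centrosome and Golgi, was fitted at 0.75 ± 1.52, -1.18 ± 1.28 and -0.83 ± 1.28, and its 4 probes lay on the same side in 7 of 14 pairs.

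Akap12, also called gravin, an anchor at the plasma membrane, read -0.82, -0.01 and -4.04 in 3xTG over WT at 12 months and -3.11 on 1 array at 3 months. Its WT ageing values were -1.52 and 1.54. Akap8l, a nuclear relative of Akap8, read -2.24, -2.26 and -2.39 at 3 months, the narrowest range of any anchor listed on all 3 arrays of a comparison, against 1.80 on 1 array at 12 months and -3.81 and -0.91 in WT ageing. Akap7 read 0.29 and -0.45 at 12 months and 4.42 and 1.68 at 3 months. Akap3 and Akap4, known from sperm, were listed too, Akap3 at -0.03, -1.04 and -0.09 at 12 months. Akap8, Akap10, Akap17b and Pakap had values from -2.83 to 3.29. Over all anchors 7 of 20 values lay above 0 at 12 months, 8 of 22 at 3 months and 10 of 24 in WT ageing, and relative to the abundant transcripts 1, 8 and 16. Of all gene values relative to the array median, 54.2%, 51% and 47.8% lay above 0 in that order.

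The exchange proteins, which activate Rap when they bind cyclic AMP, were listed on 3 arrays each. Rapgef3 read 0.24 and 0.13 in 3xTG over WT at 12 months and -2.56 in WT ageing, and Rapgef4, the form abundant in brain, -3.43 at 12 months and -2.06 and -1.90 at 3 months.

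The CREB family and its coactivators lay mostly below 0 in 3xTG over WT. Of their values, 9 of 31 lay above 0 at 12 months (median -0.70), 11 of 31 at 3 months (median -1.12) and 15 of 32 in WT ageing (median -0.36). Of all gene values, 54.2%, 51% and 47.8% lay above 0 in that order. Of 6 fitted genes of this group, 1 lay above 0 in each genotype comparison and 4 in WT ageing. Of all fitted genes 60%, 52.9% and 46.3% did. Relative to the abundant transcripts 3, 7 and 19 of the values lay above 0, so the side in WT ageing changed with the centring.

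Creb1, the main CREB protein, read -0.28, -3.27 and -0.91 at 12 months, 1.25, -1.21 and 0.68 at 3 months, with 1.18, 2.24 and -3.27 in WT ageing. It was fitted at -1.26 ± 1.22 (log2 and SE, limma adjusted p = 0.623), 0.47 ± 1.22 and 0.30 ± 1.22. Atf1, a close relative that binds the same element, read -1.94 and -0.20 at 12 months, -4.71 and -2.99 at 3 months, with -0.81 and 1.61 in WT ageing. Its fitted ratio at 3 months was -3.85 ± 1.08 (adjusted p = 0.182), against -1.07 ± 1.03 at 12 months, and the difference, 2.78 ± 1.49, had an adjusted p of 0.582. The 2 Atf1 values at 3 months come from different probes, and those at 12 months from only 1 of these. On the second array of WT ageing, where both probes were listed, they read 0.064 and -1.683.

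Crebbp, the histone acetyltransferase that CREB recruits, read -1.06, -0.87 and -0.86 in 3xTG over WT at 12 months, -2.62 and 0.11 at 3 months, and 1.27, 2.63 and 2.58 in WT at 12 over 3 months. It was fitted at -1.01 ± 0.85, -1.51 ± 1.20 and 2.05 ± 0.85 (log2 and SE, limma adjusted p = 0.569, 0.546 and 0.317). The values at 12 months are means of probes that ran from -4.65 to 2.20 there, and over all arrays its 3 probes lay on the same side in 3 of 9 pairs. Creb5 read -1.40 and -0.99 at 12 months, -1.42, 0.53 and -2.51 at 3 months, with 1.28, -0.39 and 0.56 in WT ageing.

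The coactivators of the Crtc family move to the nucleus when they lose phosphate. Crtc1, the form of neurons, read -0.89 and -2.10 in 3xTG over WT at 3 months and -2.29, -4.17 and -2.63 in WT ageing. It had no value at 12 months in 3xTG over WT, and in the unfiltered fit it was at -3.02 ± 0.91 in WT ageing (log2 and SE, limma adjusted p = 0.327). Crtc2 read -0.88 and -0.41 at 12 months, 3.36 at 3 months, with -3.88 and -2.67 in WT ageing, and Crtc3 was fitted at 0.037 ± 0.84, -1.16 ± 0.96 and -0.011 ± 0.96. Crem, whose isoforms activate or repress CREB targets, read 5.04 and 6.15 at 12 months and 2.18, -0.03 and -1.53 at 3 months. Its unfiltered genotype effect at 12 minus 3 months was 4.52 ± 1.55 (adjusted p = 0.699). Crebzf was fitted at -0.78 ± 1.31, -2.08 ± 1.56 and -1.01 ± 1.49. The 8 others, Atf6b, Creb3, Creb3l1, Creb3l2, Creb3l3, Creb3l4, Crebl2 and Crebrf, had values from -6.73 to 3.83.

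**Figure D4:**
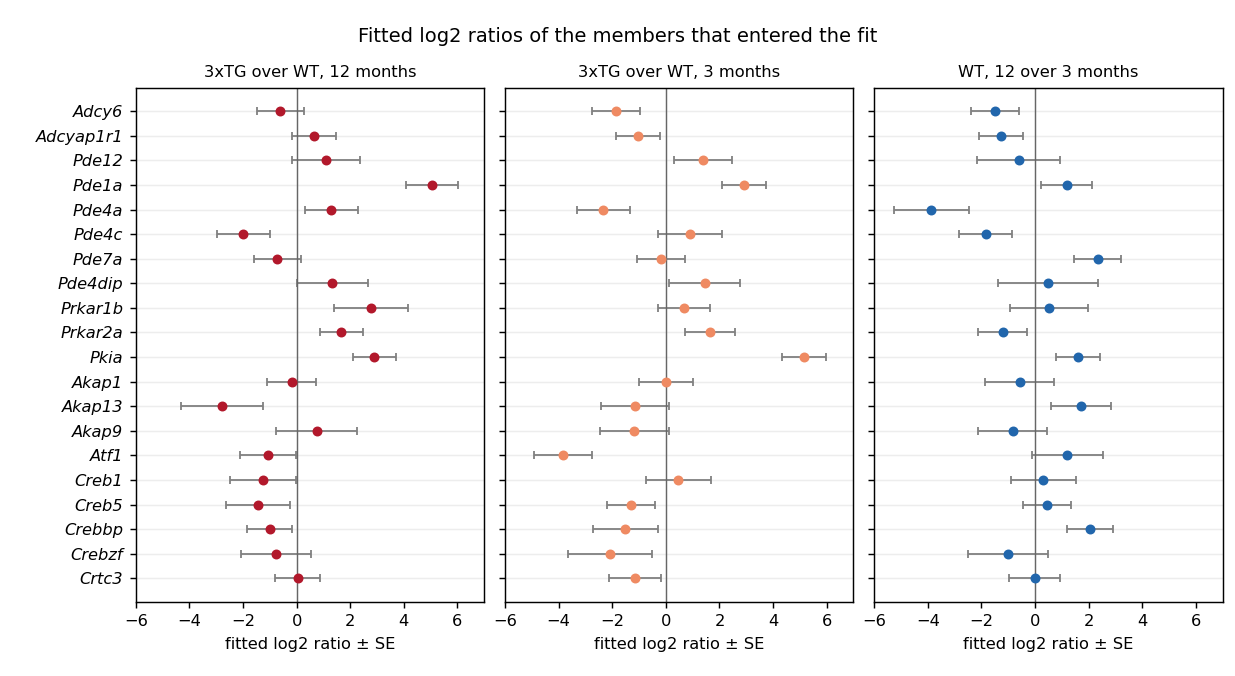
Fitted log2 ratios of the 20 genes that entered the fit, with SE as bars, in 3xTG over WT at 12 months, 3xTG over WT at 3 months and WT at 12 over 3 months. Pkia and Pde1a lie above 0 in all 3 panels, Atf1 is lowest at 3 months at -3.85, and Pde4a is lowest in WT ageing at -3.87.

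Agreement over the 3 arrays of a comparison was read against all genes. In 3xTG over WT at 12 months, 5 of 18 pathway genes listed on all 3 arrays were above 0 on each (Adcy8, Adcyap1r1, Pkia, Prkar1a and Prkar2a), a share of 27.8% against 30.4% of all such genes, and 5 were below 0 on each (Akap12, Akap3, Creb1, Crebbp and Pde4d), 27.8% against 16.3%. At 3 months 4 of 21 were above on each (Adcyap1, Pde1a, Pde8a and Pkia), 19% against 28.4%, and 5 below (Adcy2, Adcy6, Akap8l, Pde2a and Pde4a), 23.8% against 19.8%. In WT ageing 6 of 17 were above (Akap13, Crebbp, Pde4d, Pde7a, Pkia and Prkar2b), 35.3% against 15.6%, and 4 below (Adcy2, Adcyap1r1, Crtc1 and Pde2a), 23.5% against 23.3%. These shares were not tested.

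**Figure D5:**
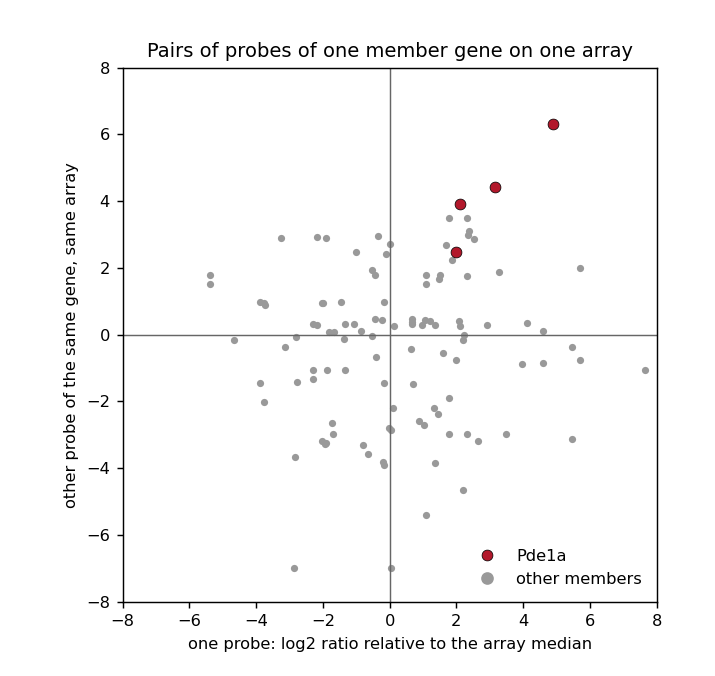
Each point is a pair of probes of 1 pathway gene on 1 array, with the log2 ratio of each probe relative to the array median on an axis. Of the 111 pairs, 58 have both probes on the same side of 0, and the 4 pairs of Pde1a lie together in the upper right.

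Probes of 1 gene often disagreed. Of 111 pairs of probes on the same array, 58 lay on the same side of 0 (52.3%), against 52.9% of 11772 pairs over all genes. Genes with a single probe, Pkia, Prkar1a, Adcy8 and Pde4a among them, could not be checked in this way. Of the genes with several probes, Creb1 agreed in 5 of 7 pairs, Adcy6 in 3 of 5, Pde4d in 2 of 4 and Crtc3 in 0 of 2. Among the kinase subunits, Prkar2a agreed in 1 of 2 pairs and Prkar2b in 0 of 1.

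Receptors, channels, phosphatases and targets around the pathway were read from lists, of which no gene was called in any comparison. Substrates and opposing phosphatases had 4 of 4 fitted genes above 0 in 3xTG over WT at 12 months (median 2.64, against 0.48 for all genes) and at 3 months (median 1.64, against 0.12), and 2 of 4 in WT ageing (median -1.06). The abundant transcripts had medians of 2.08, 0.52 and -0.69 on these arrays. Ppp1cb, a catalytic subunit of protein phosphatase 1, read 2.93, 3.71 and 3.77 at 12 months, 1.41, 2.00 and 4.82 at 3 months, with 0.38 and 0.63 in WT ageing. Its fitted ratios were 3.68 ± 0.83 (log2 and SE, limma adjusted p = 0.140), 2.98 ± 0.83 (adjusted p = 0.168) and 0.57 ± 0.98. Ppp3cb, a catalytic subunit of calcineurin, was fitted at 3.36 ± 0.82, 1.67 ± 0.82 and -2.39 ± 1.15.

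Of genes known as CREB targets, 3 of 6 fitted lay above 0 in 3xTG over WT at 12 months (median 0.076), 2 of 6 at 3 months (median -0.78) and 3 of 6 in WT ageing (median 0.37). Egr1, an immediate early gene, was fitted at 0.24 ± 0.95, -0.53 ± 0.80 and -0.10 ± 0.80, and Dusp1, a phosphatase of MAP kinases, at 0.57 ± 1.19, -2.13 ± 1.15 and -2.72 ± 1.01. Bdnf, the neurotrophin, was listed on 1 array in each genotype comparison, at 5.02 and 5.17.

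Among receptors that lower cyclic AMP, 2 of 5 fitted genes lay above 0 at 12 months, 4 of 5 at 3 months and 3 of 5 in WT ageing. Gabbr1, a subunit of the GABA-B receptor, read 3.39 and 1.41 at 12 months, -2.03, -1.46 and -1.66 at 3 months, with -2.32 and -3.79 in WT ageing. Of receptors that raise cyclic AMP only the dopamine receptor gene Drd1 entered the fit, at 1.84 ± 1.25, 2.88 ± 1.25 and 3.16 ± 1.75. Drd1 is also a marker of the striatum, and of the other striatal markers Ppp1r1b read 4.10 and 0.19 at 12 months and 4.32 at 3 months, Rgs9 -2.58 and -0.37 at 12 months and 0.93 at 3 months, and Drd2 -0.37 at 12 months and 0.21, -0.47 and -2.09 at 3 months. Other effectors of cyclic nucleotides, channels and Rap regulators among them, had 4, 6 and 6 of 9 fitted genes above 0 in the same order of comparisons.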

How the data were processed

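Two-colour oligonucleotide arrays measured hippocampal RNA of 8 mice on 9 arrays. The deposited values are log2 ratios per probe: the ratios were made by the authors, and their background correction, filter and normalization are not stated in any label or header used. The base is read as 2 because the largest value, as a natural log, would be a 177194-fold ratio, above the 65535 of a 16-bit scanner. Array medians of the deposited log2 ratios ran from -1.71 to 2.34, so each array was centred on its median. Precision is limited by the number of mice, 2 per group, and by the number of arrays, and spot brightness was not used here. Opposite-dye arrays of a comparison correlated at 0.197 to 0.308.

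Probes were named through the platform table and updated with RefSeq symbols (GRCm38.p6), and averaged per gene. Genes listed on at least 2 of 3 arrays of each comparison (3980, of which 3944 could be fitted) entered a limma model (limma 3.58.1 under R 4.3.3; generalised least squares) holding 3 comparison coefficients, a dye term and a covariance from shared mice (variance ratio 0.115, from 516 complete genes), then eBayes and Benjamini-Hochberg adjustment over all fitted genes at 0.05. The labels number arrays 1 to 3 within each comparison, and same-numbered arrays did not deviate together (r -0.053 to 0.084). The fit was tested on simulated data.

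Pathway genes, lists and tests were chosen with earlier results of these data known. Named with array values are, per comparison and direction, the fitted genes of smallest p with 1 sign on all listed arrays, and the kinase subunits and inhibitors; further genes were named after their values were seen. Alternatives covered centring, the dye term, the covariance, the filter, blocks, single probes and left-out arrays. Of the designed replicates, 6 are counted as biological and 3 as technical by the design text. Part of the strain label is not reported here.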

Additional observations from a re-analysis of the deposited data

How the results depend on the processing

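No pathway gene was called in any comparison under any alternative, except Pkia in 3xTG over WT at 3 months: 1 gene with arrays taken as independent and 1 among genes listed on all 3 arrays of each comparison, where 5 pathway genes were tested. Of the genes named singly, no called or nominal value changed sign. The counts of pathway genes at an unadjusted p under 0.05 (limma) were 2 of 20 in 3xTG over WT at 12 months (18.1% of all genes), 4 at 3 months (16.8%), 3 in WT ageing (14.1%) and 1 for the genotype effect at 12 minus 3 months (9.41%). Without centring they were 5 at 12 months (15.8% of all genes), 7 in WT ageing (28.4%) and 2 for the difference (11.8%), and centred on abundant transcripts 9 at 12 months (22.7%), 6 at 3 months (19.3%) and 2 for the difference (9.46%), where both centrings gave Pkia and Pde4c and not Pde4a. With genes listed on all 3 arrays they were 1, 1, 1 and 0 of 5 in the same order as the first 4 (27.7%, 24.8%, 18.6% and 13% of all genes), and with no filter on missing values 5, 7, 6 and 3 (13.6%, 11.9%, 10.9% and 6.79%). The variance ratio from complete probes gave 1 in WT ageing (8.47%), and single probes gave 1 at 12 months (18.5%) and 2 at 3 months (15.4%). The replicate block, on numbers that do not pair the arrays, gave 2 at 3 months (15.2%).

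The median of the pathway minus that of all genes was -0.55 at 12 months, -0.73 at 3 months, 0.30 in WT ageing and -0.14 for the difference. At 12 months it was -1.27 among genes listed on all 3 arrays, 0.28 with no filter and 0.22 with single probes. At 3 months it was -0.43 without centring, -0.45 with no filter, -1.33 with the replicate block and -0.15 with the range of array codes as a block. In WT ageing it was -0.24 without a dye term, -0.49 with no filter and -0.47 with single probes. For the difference it was -0.88 among genes listed on all 3 arrays, 0.84 with no filter and -0.75 with single probes. The causes were not tested, beyond the number of genes tested in the filters.

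Over the fits that each leave out 1 array, the median difference ran from -1.45 (the lowest without array 3 of that comparison) to -0.51 at 12 months, from -0.78 to -0.086 at 3 months, from -0.28 to 0.62 in WT ageing and from -0.56 to 0.30 for the difference. The nominal counts ran from 2 to 3, 3 to 4, 1 to 3 and 0 to 2. In WT ageing the count was 1 without its array 1 or array 3, and for the difference 2 without array 2 of 3 months. Fits with an arm of 2 arrays pool the spread over all comparisons.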
